A study of Mus musculus with 10 samples.

Results

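The scavenger genes of resident tissue macrophages described here are 9 genes of the 18223 in the deposited gene table: Lyve1, Cd163, Slco2b1, Mrc1, Folr2, Stab1, Cbr2, Selenop and Timd4. They were picked by symbol and all 9 were found. They were chosen by their read counts in the groups compared here as well as by their known roles, so their values are a description with no test. RNA had been sequenced from whole subcutaneous tumours of MC38, a mouse colon adenocarcinoma line that grows in immunocompetent mice. The high tumour burden group (HTB) and the low tumour burden group (LTB) have 5 libraries each. The treatment labels read 2000000 for HTB and 500000 for LTB, taken here as the number of cells injected though the labels do not say so, and both give 14 days. All tumours share the cell line and the site, and the labels give no mouse strain, age, sex or measured tumour size. Nor do they tie the libraries to separate mice, and p-values thus measure the spread between libraries, which may be technical.

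Resident macrophages sit in tissues for long periods, many of them beside blood vessels, and clear proteins, cell debris, lipids and metals by receptor-mediated uptake. Lyve1 binds hyaluronan and marks perivascular macrophages as well as lymphatic endothelium. Cd163 takes up haptoglobin-haemoglobin complexes, Mrc1 (the mannose receptor, CD206) takes up glycoproteins with exposed mannose, and Stab1 (stabilin-1) clears modified lipoproteins and matrix fragments. Folr2 is the folate receptor beta of macrophages, and Timd4 binds phosphatidylserine on dying cells. Slco2b1 is a transporter of organic anions such as steroid sulfates, Selenop is the secreted selenoprotein that carries selenium between tissues, and Cbr2 is a carbonyl reductase.

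In the deposited table, on GRCm38, Slco2b1 lies at chr7:99657804-99711340, Folr2 at chr7:101839988-101857190 and Lyve1 at chr7:110850607-110862953, all on chromosome 7. Cd163 lies at chr6:124304630-124330529, Mrc1 at chr2:14229414-14332023, Stab1 at chr14:31138905-31168651 and Selenop at chr15:3270767-3280508. Timd4 (chr11:46810786-46844333) and Cbr2 (chr11:120729485-120732025) share chromosome 11.

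The promoters of 4 of these genes are shown because the first 3 belong to genes with higher values in HTB and the last, Mrc1, to one with similar values in both groups. Each is the 250 bases before the annotated start in GRCm38.p6, taken from RefSeq and written in the direction of the gene. Capitals mark any match to 6 short motifs that were searched.
Slco2b1 (chr7:99711341-99711590, minus strand): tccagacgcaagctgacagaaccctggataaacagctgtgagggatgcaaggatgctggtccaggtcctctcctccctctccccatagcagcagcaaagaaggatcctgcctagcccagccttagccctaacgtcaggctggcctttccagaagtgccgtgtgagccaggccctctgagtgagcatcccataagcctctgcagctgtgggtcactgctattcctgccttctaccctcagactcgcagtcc
Cd163 (chr6:124304401-124304650, plus strand): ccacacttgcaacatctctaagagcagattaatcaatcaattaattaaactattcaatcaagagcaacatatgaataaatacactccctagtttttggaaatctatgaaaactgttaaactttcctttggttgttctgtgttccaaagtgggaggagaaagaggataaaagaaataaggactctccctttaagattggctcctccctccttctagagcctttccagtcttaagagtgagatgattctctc
Selenop (chr15:3270517-3270766, plus strand): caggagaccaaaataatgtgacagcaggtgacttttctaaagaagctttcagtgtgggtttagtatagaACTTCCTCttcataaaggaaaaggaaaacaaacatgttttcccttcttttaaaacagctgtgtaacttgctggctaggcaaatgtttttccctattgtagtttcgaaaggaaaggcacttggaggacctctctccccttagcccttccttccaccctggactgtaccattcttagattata
Mrc1 (chr2:14229164-14229413, plus strand): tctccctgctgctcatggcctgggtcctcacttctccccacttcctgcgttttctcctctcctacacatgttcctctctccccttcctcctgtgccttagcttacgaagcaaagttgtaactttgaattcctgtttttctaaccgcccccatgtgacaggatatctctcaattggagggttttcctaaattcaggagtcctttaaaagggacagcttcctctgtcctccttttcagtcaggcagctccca
A RefSeq promoter window of 250 bases before and 50 after a start was at hand for 8 of the 9 genes (13 windows). The motifs were searched on both strands: GAGGAAGT, a form of the site that ETS factors such as PU.1 bind; TGCTGAC, part of the MAF site; CACGTG, the E-box of the MITF family; TGANTCA, the AP-1 site; the palindrome of the glucocorticoid receptor; and TATAAA. GAGGAAGT was found for 2 of the genes, Slco2b1 and Selenop, and in 3.2% of 32851 windows of that length. In Selenop it lies on the opposite strand 181 bases before the start. In Slco2b1 it begins at base 7 after the start and shares its last base with a TGANTCA match, as in the 30 bases printed next with GAGGAAGT in capitals.
Slco2b1 start (chr7:99711316-99711345, minus strand): agtccatgaggGAGGAAGTgactcatcttc
TGANTCA was found for Slco2b1 and Folr2 (7.81% of windows), TGCTGAC for Timd4 and Cbr2 (4.67%), and TATAAA for Selenop (13.6%). No window of these genes held CACGTG (7.15% of all windows) or the palindrome (0.475%). Such matches describe the letters only.

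The libraries held between 23070917 and 27185168 estimated reads. Values are CPM, each count scaled to a common library total after TMM correction. Differences were fitted for all genes together with edgeR's quasi-likelihood test. HTB replicate 2 stood apart: its 10 skeletal muscle markers summed to 15240 CPM (7.94 to 58.0 in HTB otherwise), its 10 adipocyte markers to 7766 CPM (113 to 265) and its 8 blood endothelium markers to 356 CPM (111 to 126). The differences of the scavenger genes are therefore also given without it, as are the calls of other genes that change. The levels per exon length are given with it. Of the 13469 genes tested, 3.91% passed an adjusted p of 0.05 as higher and 7.51% as lower in HTB. Without HTB replicate 2 these shares were 9.77% and 12.7%.

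The scavenger genes did not move as 1 group: Lyve1, Cd163, Slco2b1 and Selenop had higher means in HTB, Mrc1, Folr2 and Stab1 had similar means in both groups, and Cbr2 and Timd4 belonged to neither set. Of the 8 that passed the filter on low counts, 4 passed the threshold as higher in HTB (Lyve1, Cd163, Slco2b1 and Selenop) and 0 as lower, against the 3.91% and 7.51% of all genes given above. Since the genes were chosen with this contrast in view, nothing is read from that count. The median log2 difference of the 8 was 0.75, and that of all tested genes 0.02. By unadjusted p in edgeR the counts were also 4 and 0, as they were by DESeq2 and without HTB replicate 2. Here and for the lists below, counts by unadjusted p stand without a share of all genes. Over the whole table DESeq2 called 1084 genes as higher and 1426 as lower, against 526 and 1011 in edgeR. In the authors' deposited table the same 4 genes have a q under 0.05, where 6.86% of all genes with a q do so as higher in HTB. Since the tissue is whole tumour, fewer cells of a type and less RNA per cell cannot be told apart in any of these values.

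**Figure D1:**
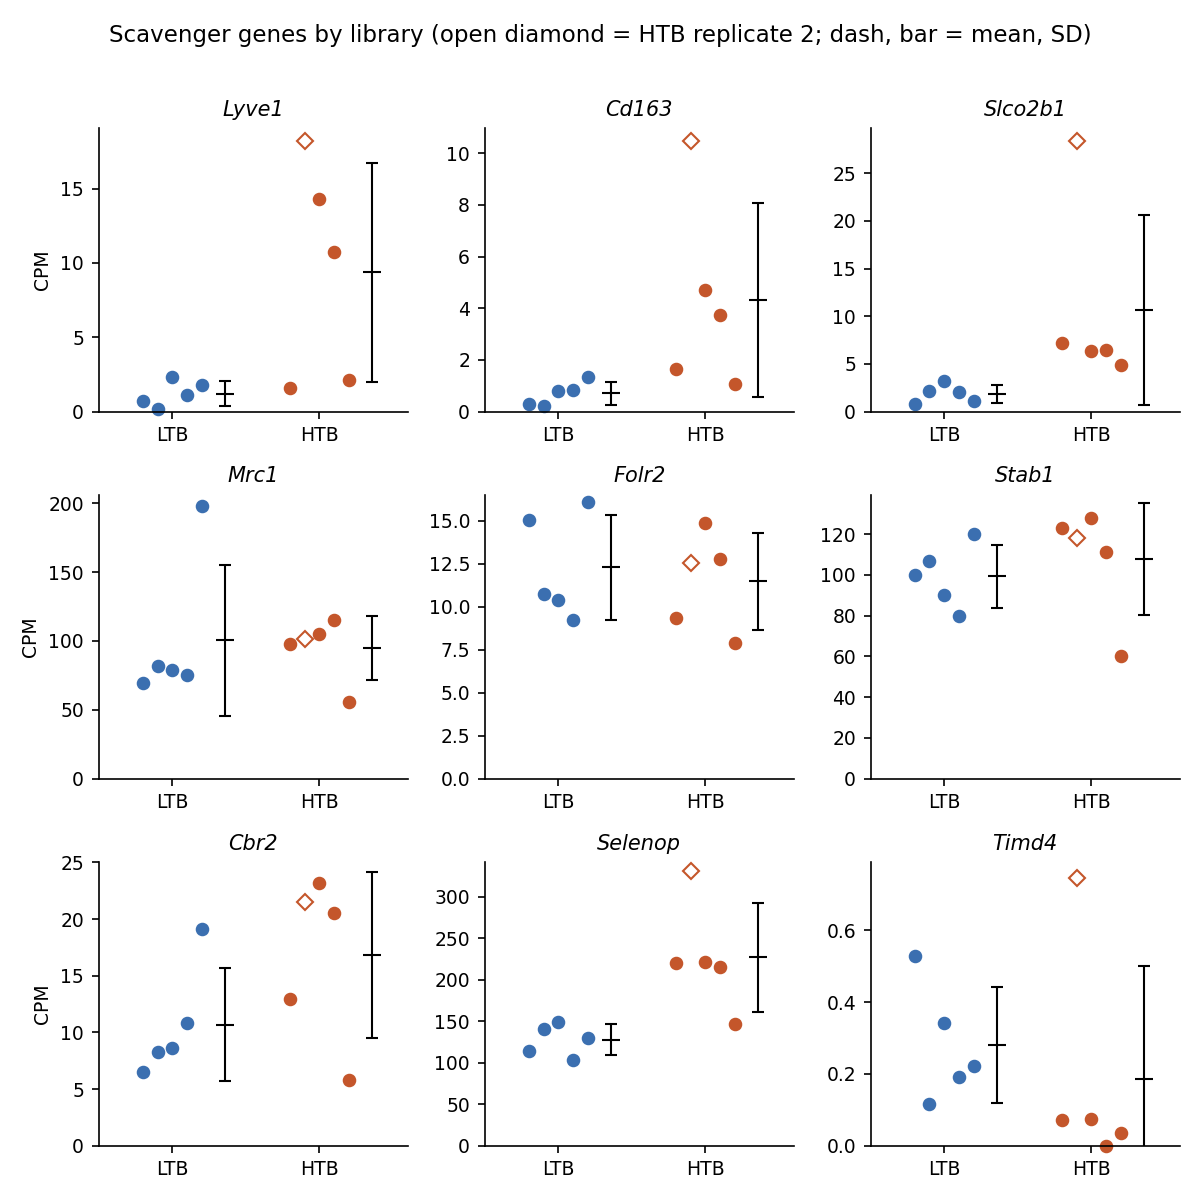
CPM of each scavenger gene (vertical axis, from 0) in 5 LTB and 5 HTB libraries. Points are libraries, the open diamond is HTB replicate 2, and the dash with its bar is the mean with its SD (cut at 0 for Timd4). Lyve1, Cd163, Slco2b1 and Selenop have higher means in HTB (9.38, 4.32, 10.6 and 227 CPM), while Mrc1, Folr2 and Stab1 overlap widely.

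Among the receptors, Lyve1 had the largest fold. Its values were 1.57, 18.2, 14.3, 10.7 and 2.13 CPM in HTB replicates 1 to 5, and 0.720, 0.195, 2.31, 1.11 and 1.78 CPM in LTB replicates 1 to 5. HTB replicates 2, 3 and 4 lay above all LTB libraries, and replicates 1 and 5 lay inside the LTB range. The mean was 9.38 ± 7.37 CPM in HTB and 1.22 ± 0.84 CPM in LTB (SD, n = 5 each), a ratio of 7.68, or 5.88 without HTB replicate 2. On the log2 scale the difference was 2.94 ± 0.78 (SE), and 2.56 ± 0.73 without that library.

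Cd163 stood at 1.64, 10.5, 4.72, 3.73 and 1.06 CPM in HTB and at 0.303, 0.234, 0.812, 0.840 and 1.34 CPM in LTB. HTB replicate 5 lay inside the LTB range and the other HTB libraries above it, with replicates 2, 3 and 4 highest as for Lyve1. The log2 difference was 2.62 ± 0.67 (SE), and 1.99 ± 0.54 without HTB replicate 2. Lyve1 passed the threshold in 3 and Cd163 in 4 of the 10 fits that each left out 1 library. The calls of both were lost without HTB replicate 3, HTB replicate 4 or any one of LTB replicates 1 to 4, and that of Lyve1 also without LTB replicate 5.

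The transporter gene Slco2b1 was the one scavenger gene whose groups did not overlap, which 4.68% of all tested genes show as higher and 7.06% as lower in HTB. It had 7.18, 28.3, 6.37, 6.41 and 4.91 CPM in HTB and 0.833, 2.18, 3.20, 2.02 and 1.11 CPM in LTB. HTB replicate 2 was far above the rest, and the other 4 HTB libraries were close together, at 6.22 ± 0.95 CPM (SD, n = 4). The log2 difference fell from 2.51 ± 0.56 (SE) to 1.73 ± 0.33 without that library, that is, from a ratio of means of 5.69 to one of 3.32. Slco2b1 passed in all 10 fits that left out 1 library. Its reads may include others: the deposited table puts it on the plus strand where GENCODE M21 has it on the minus strand, 7 of its 15 listed transcripts carry no RefSeq mRNA accession, and 549 of its exonic bases overlap 2 antisense genes. One of these, Gm34280, had 23 reads over all libraries and at most 0.706 CPM, in HTB replicate 2. The other, Gm15635, was not found by symbol in the deposited table. Transcripts without a RefSeq mRNA accession are also listed for Cd163 (5 of 9) and Stab1 (2 of 3).

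Selenop, the most abundant of the 9 per exon length, had 221, 331, 222, 216 and 147 CPM in HTB and 115, 140, 149, 103 and 130 CPM in LTB. The HTB libraries lay above all LTB libraries except replicate 5, which was just below the highest LTB value. The mean was 227 ± 65.7 against 127 ± 18.7 CPM (SD, n = 5 each), a ratio of 1.78, or 1.58 without HTB replicate 2. The log2 difference was 0.83 ± 0.19 (SE), and 0.66 ± 0.14 without that library. It passed in all 10 fits that left out 1 library. Its exons overlap those of Ccdc152 on the other strand by 439 bases, and Ccdc152 had 3 reads in all.

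Mrc1, Folr2 and Stab1 differed by less than the spread between libraries. Mrc1 had 97.6, 101.5, 105, 115 and 55.5 CPM in HTB and 69.3, 81.6, 78.6, 75.2 and 198 CPM in LTB, so that LTB replicate 5 was high and HTB replicate 5 low. Without LTB replicate 5 its log2 difference moved from -0.08 ± 0.30 (SE) to 0.32. Stab1 had 123, 118, 128, 111 and 60.0 CPM in HTB and 100, 107, 90.1, 79.7 and 120 CPM in LTB, a log2 difference of 0.12 ± 0.19. Its exons overlap those of Nt5dc2 on the other strand by 112 bases, and Nt5dc2 had 18740 reads in all (59.85 to 83.79 CPM). Folr2 had 9.36, 12.6, 14.9, 12.8 and 7.88 CPM in HTB and 15.03, 10.7, 10.4, 9.24 and 16.1 CPM in LTB, a log2 difference of -0.10 ± 0.21. For Mrc1 and Folr2, 4 of 5 HTB libraries lay inside the LTB range.

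Cbr2 stood between both sets. It had 12.9, 21.5, 23.2, 20.5 and 5.82 CPM in HTB and 6.51, 8.25, 8.59, 10.8 and 19.1 CPM in LTB. Replicates 2, 3 and 4 of HTB lay above all LTB libraries, while HTB replicate 5 was the lowest of all 10 and LTB replicate 5 lay near the high HTB values. The log2 difference was 0.66 ± 0.38 (SE), and 0.56 ± 0.40 without HTB replicate 2. It was 0.88 ± 0.30 without HTB replicate 5 and 0.97 ± 0.36 without LTB replicate 5. Cbr2 passed in 0 of the 10 fits that left out 1 library.

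Timd4 was close to absent, with 58 reads over the 10 libraries, and did not enter the fit. Its reads numbered 2, 18, 2, 0 and 1 in HTB and 14, 3, 8, 5 and 5 in LTB. The 0 reads of HTB replicate 4 allow up to 0.109 CPM (3 reads; counting error only). Outside HTB replicate 2, at 0.747 CPM, the HTB libraries held at most 0.0732 CPM, below the 0.117 to 0.530 CPM of LTB. With so few reads, no fold is given.

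**Figure D2:**
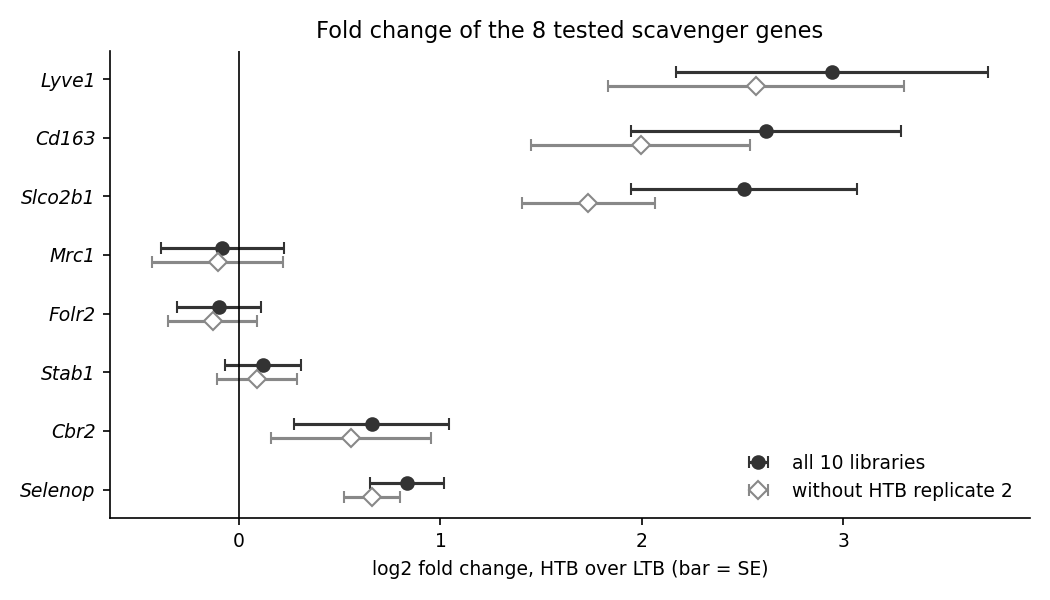
Log2 fold change of HTB over LTB (horizontal axis, bar = SE) for the 8 scavenger genes that entered the fit, with all 10 libraries (filled circles) and without HTB replicate 2 (open diamonds). Lyve1, Cd163 and Slco2b1 keep values of 2.56, 1.99 and 1.73 without that library, and Mrc1, Folr2 and Stab1 stay near 0.

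The libraries of a group did not vary alike across the genes. HTB replicate 5 was the lowest HTB library for 7 of the 9 genes and HTB replicate 2 the highest for 5. In LTB, replicate 5 was highest for 5 genes (Cd163, Mrc1, Folr2, Stab1 and Cbr2). Within HTB the highest library exceeded the lowest by 11.6 times for Lyve1, 9.85 times for Cd163 and 5.77 times for Slco2b1. The same ratio was 1.89 for Folr2, 2.07 for Mrc1 and 2.13 for Stab1. In LTB it was 11.9 for Lyve1 and 1.504 for Stab1. For Slco2b1 the spread in HTB rests on replicate 2: its coefficient of variation was 93.3% with that library and 15.2% without it, the lowest of the 8 tested genes. Without it, Lyve1 (88.2%), Cd163 (61.9%) and Cbr2 (50.2%) varied most of the 8.

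Levels of different genes can be compared once divided by exon length (merged GENCODE M21 exons). As CPM per kb in HTB, Selenop led at 106 ± 30.6 (SD, n = 5), followed by Mrc1 at 17.7 ± 4.28, Cbr2 at 15.1 ± 6.57, Stab1 at 13.5 ± 3.44 and Folr2 at 8.70 ± 2.13. Lyve1 (3.24 ± 2.55), Slco2b1 (2.00 ± 1.87), Cd163 (0.963 ± 0.834) and Timd4 (0.0856 ± 0.145) followed. In LTB the order began with Selenop (59.4 ± 8.70), Mrc1 (18.7 ± 10.2), Stab1 (12.4 ± 1.93), Cbr2 (9.60 ± 4.48) and Folr2 (9.32 ± 2.32), and ended with Lyve1 (0.422 ± 0.290), Slco2b1 (0.352 ± 0.178), Cd163 (0.157 ± 0.100) and Timd4 (0.129 ± 0.0743). Mrc1, Cbr2, Stab1 and Folr2 overlap their neighbours in both groups, as do Lyve1, Slco2b1, Cd163 and Timd4. Selenop in every library stayed above the other 8 genes in every library. The genes of higher HTB values thus come from both ends of this order.

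**Figure D3:**
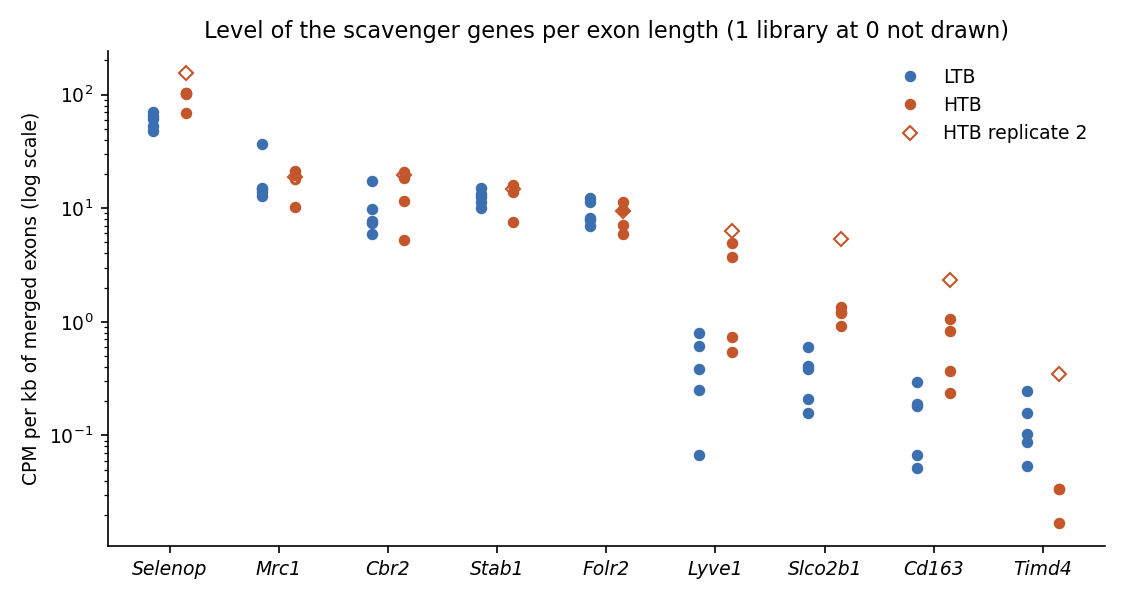
CPM per kb of merged exons (vertical axis, log scale) for the 9 scavenger genes, ordered by their HTB mean. Points are libraries, with HTB replicate 2 as an open diamond, and the HTB library with 0 reads of Timd4 is left out. Selenop stands highest, Mrc1, Cbr2, Stab1 and Folr2 form a middle band, and Lyve1, Slco2b1 and Cd163 lie below it in LTB.

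Of 10 general macrophage genes, 4 fell (Itgam, Lyz2, Msr1 and Cd68) and 0 rose, against 7.51% and 3.91% of all tested genes, with a median log2 difference of -0.91 where the median of all tested genes was 0.02. By unadjusted p in edgeR 7 fell and 0 rose, and by DESeq2 6 and 0. Neither of these counts has a share of all genes beside it, and neither is read as added support. Without HTB replicate 2, 3 fell, Cd68 no longer passing (adjusted p = 0.0519, edgeR), against 12.7% of all tested genes. Lyz2, lysozyme, was at 689 ± 247 CPM in LTB and fell to 310 ± 60.8 (SD, n = 5 per group), or by 1.15 ± 0.23 (SE) on the log2 scale (adjusted p = 0.0111, edgeR with Benjamini-Hochberg adjustment). The integrin gene Itgam fell by 1.23 ± 0.21 (adjusted p = 0.00655), and Msr1, a scavenger receptor outside the 9, fell by 1.28 ± 0.24 (adjusted p = 0.00895). These 3 kept their calls in all 10 fits that left out 1 library, and Cd68 in 1 of 10. The 10 genes summed to between 474 CPM (replicate 5) and 735 CPM in HTB, and to between 866 and 2059 CPM (replicate 1) in LTB. Lyz2 weighs most in this sum, with 227 of the 474 CPM and 1103 of the 2059 CPM. Among the genes not called were Adgre1 (log2 -0.66 ± 0.28 SE, adjusted p = 0.145, edgeR) and Mertk (0.32 ± 0.20).

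Csf1r, the receptor for the growth factor macrophages depend on, stood at 78.1 ± 25.3 CPM in HTB and 96.4 ± 27.5 CPM in LTB (SD, n = 5 each; log2 -0.30 ± 0.28 SE, adjusted p = 0.501, edgeR). Set against 100 Csf1r reads of the same library, Cd163 ranged from 2.05 to 11.3 in HTB and from 0.237 to 1.61 in LTB. Slco2b1 ranged from 6.27 to 30.6 against 0.651 to 3.89, and Selenop from 218 to 411 against 89.5 to 199. These 3 genes did not overlap between the groups on this scale, which 0.483% of all tested genes show as higher in HTB. The scale was added after the data were seen, and the 9 genes were chosen with this contrast in view. Nothing is therefore read from that share. In CPM only Slco2b1 was free of overlap: HTB replicate 5, which overlapped for Cd163 and Selenop, held 35.8 CPM of Csf1r where the other HTB libraries held 79.8 to 101.6, and its Selenop, the lowest of HTB in CPM, was the highest of HTB per Csf1r read. The ratios of means on this scale without HTB replicate 2 were 4.26 for Cd163, 4.20 for Slco2b1, 2.08 for Selenop and 6.39 for Lyve1. Lyve1 ranged from 1.96 to 19.6 against 0.198 to 2.27, with HTB replicate 1 inside the LTB range. Mrc1, Folr2, Stab1 and Cbr2 still overlapped, with ratios of means of 1.14, 1.17, 1.30 and 1.69 (1.18, 1.21, 1.34 and 1.64 without HTB replicate 2). Over the summed CPM of all 10 general macrophage genes, 5 of the 9 did not overlap (Stab1 in addition to Lyve1, Cd163, Slco2b1 and Selenop). But 62.5% of all tested genes do the same on that scale, since the sum itself, in which Lyz2 weighs most, was lower in HTB.

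**Figure D4:**
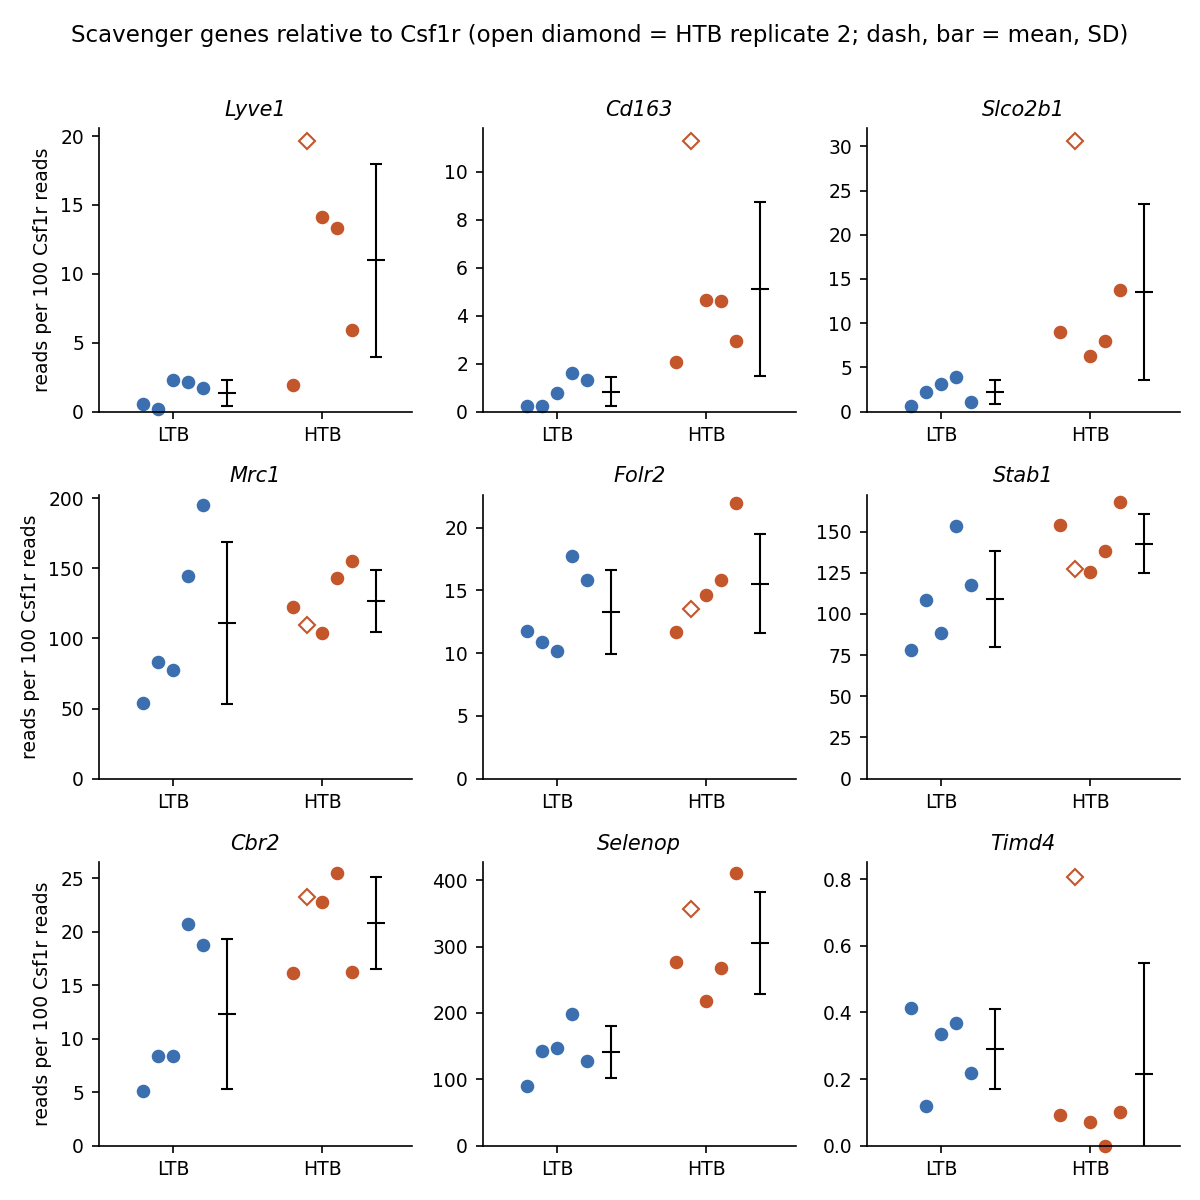
Reads of each scavenger gene per 100 reads of Csf1r in the same library (vertical axis, from 0), for 5 LTB and 5 HTB libraries. Points are libraries, the open diamond is HTB replicate 2, and the dash with its bar is the mean with its SD (cut at 0 for Timd4). Cd163, Slco2b1 and Selenop do not overlap between the groups, and Mrc1 and Folr2 do.

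Another 20 genes of resident or perivascular macrophages, listed from general knowledge, went no single way. Of 15 tested, 2 fell and 0 rose in edgeR, where 7.51% of all tested genes fell and 3.91% rose. The counts were 6 and 3 by unadjusted p, and 3 and 2 in DESeq2, and the median log2 difference was 0.00. Without HTB replicate 2, 4 fell and 1 rose, against 12.7% and 9.77% of all tested genes. The chemokine gene Ccl8 was at 67.4 ± 29.7 CPM in LTB and fell to 20.3 ± 14.1 (SD, n = 5 per group; log2 -1.73 ± 0.45 SE, adjusted p = 0.0329, edgeR) and the lectin gene Mgl2 from 26.6 ± 34.0 to 3.23 ± 2.03 CPM (log2 -3.04 ± 0.80 SE, adjusted p = 0.0349, edgeR). Each kept its call in 3 of the 10 fits that left out 1 library, and LTB replicate 5 held 86.7 CPM of Mgl2 where the other LTB libraries held 3.60 to 17.5. Maf, a transcription factor of resident macrophages, was at 47.3 ± 9.52 and 47.2 ± 13.2 CPM (log2 0.00 ± 0.20 SE). Of the markers that define long-lived resident cells, Cd5l had 23 reads in all and Vsig4 81, and neither was tested. The label of the 9 genes therefore holds for their known roles, while Timd4 and Cd5l, which mark such cells in several organs, were nearly absent.

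Lyve1, Stab1 and Mrc1 are also made by some endothelial cells, so vessel markers were read beside them. Of 6 lymphatic endothelium markers, Prox1, the defining transcription factor, had 25 reads in all libraries, Reln 25, Mmrn1 29 and Ccl21a 50. The 2 that were tested, Flt4 and Pdpn, stood at 0.76 ± 0.25 and -0.50 ± 0.18 (log2, SE; adjusted p = 0.0770 and 0.0899, edgeR), and 0 of them passed in either direction (1 higher and 1 lower both by unadjusted p and in DESeq2). Summed, the list reached 156 to 194 CPM for HTB libraries and 192 to 382 for LTB ones, most of it Pdpn. How much of the Lyve1 signal came from lymphatic endothelium was not tested. Of 8 blood endothelium markers 0 passed in edgeR, 3 were higher by unadjusted p and 2 in DESeq2, and without HTB replicate 2 the angiopoietin receptor gene Tek rose (log2 0.88, adjusted p = 0.0369, edgeR). Among sinusoidal endothelium markers, Stab2 had 61 reads and Clec4g 5 in all, while Fcgr2b and Oit3 fell, with the 2 of them called in 7 and 3 of the 10 fits that left out 1 library. Oit3 had 146 reads in all and Fcgr2b 18262, so the list rests on Fcgr2b. Their fall is therefore not read as one of sinusoidal endothelium. Of the monocyte list 5 of 8 fell, among them Plac8, Ccr2 and F10, and 0 rose (6 and 0 by unadjusted p in edgeR, 4 and 0 in DESeq2), where 7.51% of all tested genes fell and 3.91% rose. Without HTB replicate 2, 5 fell and Vcan rose (log2 0.51, adjusted p = 0.0282, edgeR), where 12.7% of all tested genes fell and 9.77% rose. Of 5 tested skeletal muscle markers 3 rose (Acta1, Tnnt3 and Atp2a1) and 2 did without HTB replicate 2, while DESeq2 called 0. The keratin gene Krt14 was the 1 of 2 tested keratinocyte markers that fell, while Krt10 stood at -0.003 ± 0.17 (log2, SE). Krt5 had reads in LTB replicate 1 alone, at 6.89 CPM. How much of the Krt14 signal came from keratinocytes was not tested. Of 8 fibroblast markers 0 passed in edgeR with all libraries (1 higher and 1 lower by unadjusted p, 1 higher in DESeq2). Of these, the receptor gene Pdgfra rose without HTB replicate 2 (log2 0.78, adjusted p = 0.0158, edgeR). In HTB replicate 2 the high muscle, fat and blood vessel sums went with the highest values of Lyve1, Cd163, Slco2b1, Selenop and Timd4, and their part in those values was not tested. The 4 genes that passed had ratios of means of 5.88, 3.96, 3.32 and 1.58 without it.

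**Figure D5:**
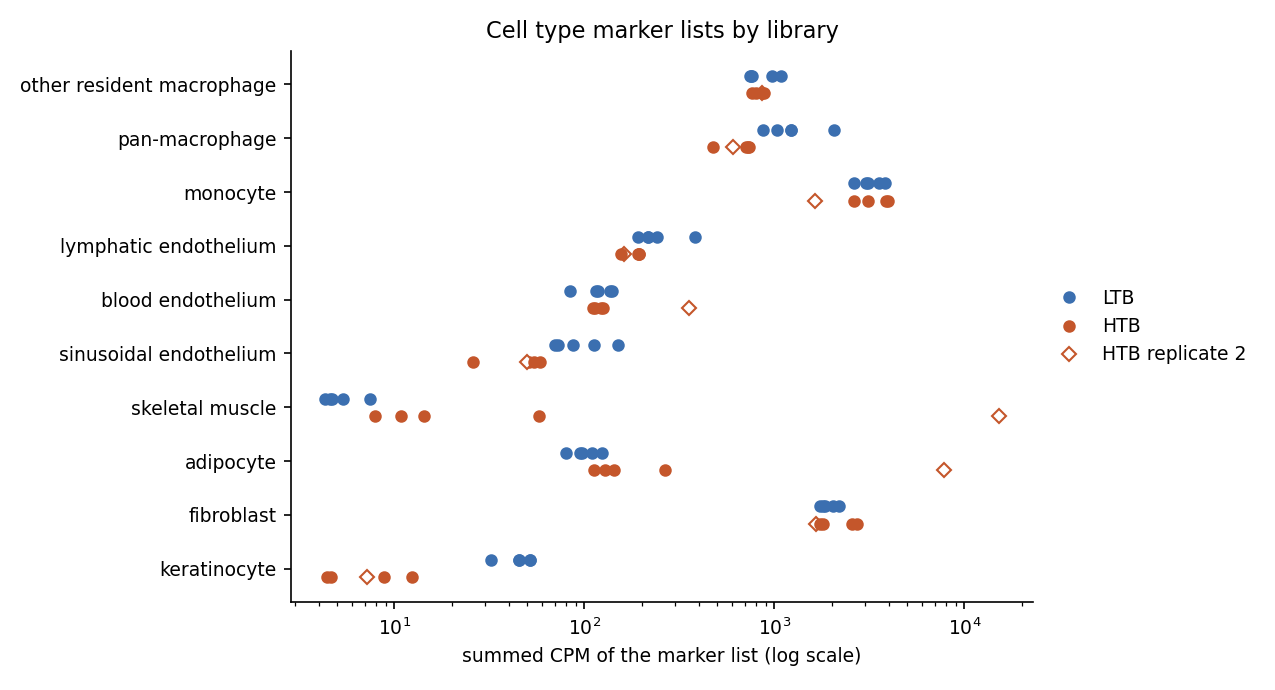
Summed CPM of 10 marker lists (horizontal axis, log scale) in each library, LTB above HTB in each row, with HTB replicate 2 as an open diamond. That library stands apart for skeletal muscle (15240 CPM), adipocyte (7766 CPM) and blood endothelium (356 CPM), while the general macrophage sums of HTB lie below those of LTB. Fn1 weighs most in the monocyte sums, with 3566 of the 3981 CPM of HTB replicate 1, so that row mainly shows Fn1.

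The partners of the scavenger genes were then read from lists of their pathways, beside the 3.91% of all tested genes that rose and the 7.51% that fell. Without HTB replicate 2 these shares were 9.77% and 12.7%. For hyaluronan, the ligand of Lyve1, 2 of 10 tested genes fell and 0 rose (4 and 0 by unadjusted p in edgeR, 3 and 0 in DESeq2). Cd44, the other main hyaluronan receptor, was at 596 ± 80.3 CPM in LTB and fell to 389 ± 16.4 (SD, n = 5 per group; log2 -0.62 ± 0.09 SE, adjusted p = 0.00334, edgeR). Cemip, which takes part in hyaluronan breakdown, fell by 2.02 ± 0.41 on the log2 scale (adjusted p = 0.0128, edgeR). Both kept their calls in all 10 fits that left out 1 library, and none of the synthase genes Has1, Has2 and Has3 passed in edgeR with all libraries. Has2 fell once HTB replicate 2 was left out (log2 -0.67, adjusted p = 0.0473, edgeR).

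For Cd163, 0 of 9 genes of haemoglobin and haem handling passed in edgeR in either direction, 1 was higher by unadjusted p, and 0 passed in DESeq2. The haptoglobin gene Hp stood at 1976 CPM in HTB replicate 2, between 0.476 and 6.96 in the rest of HTB, and between 1.72 and 9.28 in LTB. Its log2 difference was 6.30 (adjusted p = 0.0903, edgeR) and -0.81 without that library. Hmox1, which breaks down haem, was at 47.3 ± 14.5 and 91.5 ± 84.3 CPM (SD, n = 5 each; log2 -0.95 ± 0.49 SE, adjusted p = 0.222, edgeR).

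Of the other organic anion transporter genes of the Slco family, 4 were tested, and Slco3a1 (-1.26 ± 0.30, log2, SE; adjusted p = 0.0239, edgeR) and Slco1a5 (-1.28 ± 0.36, adjusted p = 0.0455) fell, while 0 rose (3 and 0 by unadjusted p, 3 and 0 in DESeq2). Their calls held in 6 and 3 of the 10 fits that left out 1 library, and without HTB replicate 2 all 4 fell. In the mannose receptor family, Ly75, an endocytic receptor of dendritic cells, fell (-0.52 ± 0.11, adjusted p = 0.0134, edgeR, in all 10 such fits), and Mrc2 and Pla2r1 stood at 0.16 ± 0.14 and 0.09 ± 0.15.

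In the folate list, 2 of 11 tested genes fell, Ggh, which trims folate chains (-0.33 ± 0.08, log2, SE; adjusted p = 0.0285, edgeR), and Shmt2, a mitochondrial one-carbon enzyme (-0.46 ± 0.13, adjusted p = 0.0423), each in 3 of the 10 fits that left out 1 library. None rose (4 fell and 0 rose by unadjusted p, 3 and 0 in DESeq2). Mthfd1, another one-carbon enzyme, fell once HTB replicate 2 was left out (log2 -0.27, adjusted p = 0.0119, edgeR). Folr1, the sister receptor of Folr2, had 5 reads in all. Of 4 relatives of Cbr2, 0 passed in edgeR with all libraries (1 higher by unadjusted p, 0 in DESeq2), and Cbr4 rose without HTB replicate 2 (log2 0.33, adjusted p = 0.0407, edgeR).

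Of 18 tested selenium genes, 2 fell and 0 rose. Scly, which frees selenium from selenocysteine, was at 39.1 ± 3.65 CPM in LTB and fell to 26.1 ± 2.09 (SD, n = 5 per group; log2 -0.58 ± 0.08 SE, adjusted p = 0.00288, edgeR), in all 10 fits that left out 1 library. The glutathione peroxidase gene Gpx1 fell by 0.43 ± 0.09 (adjusted p = 0.0174, edgeR), in 8 of the 10. By unadjusted p 3 genes were higher and 3 lower, and in DESeq2 1 and 2. Without HTB replicate 2, 5 fell and 1 rose, and the fallen then included Lrp8, a receptor that takes up Selenop (log2 -0.67, adjusted p = 0.0221, edgeR), which stood at -0.50 ± 0.20 with all libraries.

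Among the receptors and bridging proteins for phosphatidylserine, the ligand of Timd4, 4 of 11 tested genes fell and 1 rose (4 and 2 by unadjusted p in edgeR, 4 and 1 in DESeq2). Cd300lf, an inhibitory myeloid receptor, was at 21.2 ± 12.1 CPM in LTB and fell to 5.45 ± 1.56 (SD, n = 5 per group; log2 -1.96 ± 0.34 SE, adjusted p = 0.00697, edgeR). Itgb3 (-1.04 ± 0.21) and Cd300lb (-1.03 ± 0.22) also fell, with adjusted p of 0.0136 and 0.0151 in edgeR, all 3 in each of the 10 fits that left out 1 library. The receptor tyrosine kinase gene Tyro3 was the one that rose (0.37 ± 0.10, adjusted p = 0.0408, edgeR), in 1 of the 10. Mertk, the kinase by which macrophages engulf dying cells, stood at 16.6 ± 3.41 and 13.3 ± 3.70 CPM (SD, n = 5 each; log2 0.32 ± 0.20 SE, adjusted p = 0.309, edgeR).

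The way the 8 tested genes varied inside the groups was compared with that of every other tested gene, by the correlation of deviations from the group means over the 10 libraries and again without HTB replicate 2. Among the genes of greatest likeness (the smaller of both correlations) were Tmem97, Phf19, Birc5, Stard8, Uhrf1, Scamp5 and Dtl, from 0.97 for Tmem97 to 0.94 for Dtl. Birc5, Uhrf1 and Dtl are genes of dividing cells. Of the scavenger genes, Cbr2 (0.91) and Cd163 (0.89) lay nearest to their shared profile, and Slco2b1 (0.24) farthest from it. That profile is the mean of the scaled deviations of the same 8 genes, so each was compared with a mean that includes it. Their correlations are thus not on a par with those of other genes. These correlations rest on 10 libraries that share their group means and scaling, among 13469 genes, and are a description only.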

How the data were processed

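Libraries were made from total RNA of whole tumours with a silica column and a SMARTER mRNA kit, per the labels' protocols. The build is GRCm38 (mm10), per the submitters' processing notes. Not given in the sources used here are the aligner, the counter and its use of strand. The table deposited by the authors holds estimated counts per gene and library, 86.4% of them whole (within 1e-09). The rest were rounded. A line without a gene was left out. Beside these stand the authors' log2 fold change, p-value and q-value, from DESeq2 per the file headers.

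Genes were tested by quasi-likelihood in edgeR 4.0.16 (R 4.3.3) with TMM factors, the filterByExpr filter and group as the one term, over all 10 libraries. Adjustment of p was by Benjamini-Hochberg over 13469 genes, with a threshold of 0.05. The code was tested on simulated data. CPM used TMM-scaled totals. An SE is the log2 fold change over the root of its F value. Alternatives were other scaling factors, DESeq2 1.42.0, other filters, a block for the replicate number, and fits without each library in turn.

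The 9 genes and all lists were chosen with earlier results of these data known. Named genes are the 9, up to 3 called genes of smallest p per list or those that define its cell type or pathway, and the 8 of greatest likeness, of which 1 is not reported here. Clec4g, Cd5l, Vsig4, Maf, Hp, Hmox1, Mertk, Csf1r, Lrp8, Cbr4, Tek, Mrc2, Pla2r1, Has1, Has2, Has3, Cd68, Folr1, Tyro3, Pdgfra, Vcan, Mthfd1, Stab2, Fcgrt, Fn1, Krt5, Krt10, Cd209f and Cd209g were named after their values were seen. The comparison with Csf1r was added after seeing the data. Every pair of libraries within a group differed by more than counting noise.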

Additional observations from a re-analysis of the deposited data

Results flagged for a closer look

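Within each group of 5, a library was singled out where its gap to the nearest other library was more than 0.71 of the group's range. This was done for the 9 scavenger genes and 10 marker lists, in 38 groups. For independent values of normal spread, chance alone gives about 1 in 20. CPM need not be normal, and 1 library can be set apart in several groups. The 9 that were found are therefore not read against that rate.

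HTB replicate 2 was set apart by Slco2b1, at 28.3 CPM where the other HTB libraries held 4.91 to 7.18, and by Timd4, at 0.747 CPM where they held 0 to 0.0732. The same library was set apart by 3 marker sums: blood endothelium at 356 CPM (others 111 to 126), skeletal muscle at 15240 CPM (7.94 to 58.0) and adipocyte at 7766 CPM (113 to 265). HTB replicate 5 was set apart by Stab1, at 60.0 CPM (others 111 to 128), and by sinusoidal endothelium markers, at 26.0 CPM (others 49.9 to 58.4). Of those 26.0 CPM, Fcgr2b alone held 25.4, so this flag is in effect one of Fcgr2b. LTB replicate 5 was set apart by Mrc1, at 198 CPM (others 69.3 to 81.6). LTB replicate 1 was set apart by lymphatic endothelium markers, at 382 CPM (others 192 to 242), of which Pdpn alone held 378.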

How the results depend on the processing

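With 5 libraries a group, single libraries decided many calls. Over the fits that left out 1 library, the genes called ranged from 736 to 3040 (1537 with all), from 177 to 1324 as higher (526) and from 559 to 1716 as lower (1011). The scavenger genes called higher ranged from 2 to 4 (4 with all), and those called lower stayed at 0. Genes of the context lists called higher ranged from 0 to 9 (4 with all) and lower from 15 to 35 (27 with all). The scavenger genes without overlap between the groups ranged from 1 to 3 in CPM (1 with all), and from 5 to 7 over general macrophage reads (5 with all), with 3 over Csf1r alone. With all libraries, 4.68%, 62.5% and 0.483% of all tested genes were free of overlap as higher in HTB on these scales. No such share is given for fits with fewer libraries, where any gene overlaps less easily, so nothing is read from the ranges. The fits without HTB replicate 2, HTB replicates 3, 4 and 5 and LTB replicate 3 moved the count of genes called by over 1.5 times, and those without LTB replicates 1, 4 and 5 the count of higher genes.

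DESeq2 called 2510 genes, 1084 of them higher, and 9 genes of the context lists higher. With the replicate number as a block, 971 genes were called, 221 higher, along with 2 scavenger genes (Slco2b1 and Selenop) and 0 context genes as higher. Libraries of the same number did not deviate together (correlations from -0.0234 to 0.0956, best with its own number for 2 of 5), so they share only a number. No log2 difference of a called scavenger gene changed sign: Lyve1 ranged from 2.56 to 3.30, Cd163 from 1.99 to 2.97, Slco2b1 from 1.73 to 2.78 and Selenop from 0.66 to 0.96. The other scaling factors and filters left the 4 called scavenger genes called.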

Other observations

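Among the resident macrophage genes too low to be tested, Vsig4, a complement receptor of resident macrophages, divided the HTB libraries as Lyve1 does. It stood at 1.58, 0.915 and 0.507 CPM in HTB replicates 2, 3 and 4, and at 0.0364 and 0.0366 CPM in HTB replicates 1 and 5. In LTB it held 0.0379 and 0.0382 CPM in replicates 1 and 4 and 0 reads in the other 3. The lectin genes Cd209f and Cd209g were high in HTB replicate 2 alone, at 13.4 and 4.15 CPM, against at most 0.220 and 0.0364 CPM in the other HTB libraries and 0.855 and 0.513 CPM in LTB. These 3 genes were picked after their values were seen, and their values are given with no test.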
